A study of Mus musculus with 6 samples.

Results

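Macrophage migration inhibitory factor (Mif), its homolog Ddt and the receptor genes Cd74, Cd44, Cxcr2 and Cxcr4 were followed in isolated mouse pancreatic islets with and without Vhlh, the gene of the von Hippel-Lindau protein. These 6 genes had 11 probe sets with a single gene symbol on the array, of 34945 such probe sets in all. They were chosen by name, as the ligands and receptors of 1 cytokine system, when the knockout and control signals were already known, so every difference between genotypes in these 6 genes is given as a description, without a test. Of the 11 probe sets, 5 were brighter than the array median on at least 3 of the 6 arrays and entered the fit, and they covered Mif, Ddt, Cd74 and Cd44. The remaining 6 probe sets were dimmer, among them the only ones for Cxcr2 and Cxcr4.

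The series compared 3 control arrays with 3 Vhlh knockout arrays, each from its own batch of islets. In the knockout, RIP2-Cre, a Cre recombinase driven by an insulin promoter, deleted the floxed Vhlh alleles (Vhlh(fl/fl)) in beta cells, and the other cells of the islet keep the gene. The labels call the other group control and give the same cross of RIP2-Cre with Vhlh(fl/fl) as disease model for all samples, so which alleles the controls carried was not settled here. In each genotype, array 01 was labelled as male mice of 26 weeks, array 02 as female mice of 20 weeks and array 03 as male mice of 18 weeks. The labels do not say how many mice were pooled into a batch. The SDs below are the spread between batches. The standard errors are limma's moderated ones, which pull the spread of a gene toward that of genes of similar brightness. The deposited values are MAS5 signals, a brightness per probe set on a linear scale, and they compare a probe set between arrays but not 1 probe set with another.

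Mif is a small secreted cytokine that cells hold preformed, and beta cells are known to release it together with insulin. It binds Cd74, the invariant chain of MHC class II, which signals through its partner Cd44, and it also binds the chemokine receptors Cxcr2 and Cxcr4. Ddt, D-dopachrome tautomerase, shares the fold of Mif and also binds Cd74. The von Hippel-Lindau protein marks hypoxia-inducible factors (HIF) for degradation, and Mif and Cxcr4 are among the genes described as induced by HIF in other cells.

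Mif and Ddt lie close together on chromosome 10 with glutathione transferase genes between them, and their promoters are shown because the genotypes lay far apart for Mif and close together for Ddt. The RefSeq table (build GRCm38.p6) held windows from 250 bases before to 50 after the gene start for 5 of the 6 members, not for Cd74. Capitals mark ACGTG, a core of the HIF response element that reads as CACGT where it lies on the opposite strand, or the palindrome TGACGTCA of the cyclic AMP response element, and in Ddt the palindrome CACGTG. The other form of the HIF core, GCGTG, was also searched, and every motif was searched on both strands. The first sequence gives the 250 bases before the Mif start (chr10:75860278-75860527, minus strand). The second gives 30 bases that lie after that start (chr10:75860231-75860260, minus strand), and the third gives the 250 bases before the Ddt start (chr10:75773375-75773624, minus strand).
Mif before start: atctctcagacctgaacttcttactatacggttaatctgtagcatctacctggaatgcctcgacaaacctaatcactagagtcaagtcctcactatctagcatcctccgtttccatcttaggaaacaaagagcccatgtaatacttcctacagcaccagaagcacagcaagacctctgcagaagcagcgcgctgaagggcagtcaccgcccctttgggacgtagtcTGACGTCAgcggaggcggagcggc
Mif after start: actgagctgggtCACGTagctcaggtccct
Ddt before start: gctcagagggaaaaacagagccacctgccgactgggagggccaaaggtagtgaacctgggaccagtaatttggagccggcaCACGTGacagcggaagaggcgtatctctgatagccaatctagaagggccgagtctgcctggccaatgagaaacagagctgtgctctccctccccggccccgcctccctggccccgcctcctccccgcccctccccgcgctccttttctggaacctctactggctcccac

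Counting from the gene start, the Mif window held TGACGTCA at -24 to -17, which 1.79% of the 32851 promoter windows hold. It also held ACGTG at 30 to 34, on the strand opposite to the gene. The Ddt window held ACGTG on both strands at -169 to -164, where the matches overlap in the palindrome CACGTG, found in 7.15% of windows. ACGTG on either strand was present in 19.6% of windows and GCGTG in 32.4%, and 43.8% held at least 1 of them, so a match is common. Cd44 had ACGTG at -29 to -25 and Cxcr4 had GCGTG at -39 to -35, while the letters of neither form were in the Cxcr2 window. These matches describe the sequence and do not show binding.

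Vhl itself, the deleted gene, gave signals of 457, 639 and 839 on control arrays 01, 02 and 03 and of 344, 358 and 467 on knockout arrays 01, 02 and 03. Its level was lower in each same-numbered pair but the groups overlapped, and the log2 difference of -0.70 did not pass (limma adjusted p 0.9998). Where its probes lie relative to the deleted part was not analysed here. Beta cell transcripts were present, with a mean log2 signal of 8 tested beta cell genes between 12.69 and 13.47 on the 6 arrays. The median signal of an array was 101.9 to 122.7 before taking the log. With 3 arrays per genotype the precision of each value is limited. Acinar cell markers stood apart on the arrays numbered 03, where the mean log2 signal of 6 exocrine enzyme genes was 13.12 in the control and 9.78 in the knockout, against 15.28 to 15.76 on the other 4 arrays. On those 4 arrays the enzyme genes lay near the highest signals of an array, which were 40917 to 76826 before taking the log. The purity of the islets was not tested. For the members that entered the fit, the differences are also given within the pairs. Pairing does not remove the drop, since the acinar mean differed by -3.34 log2 units within pair 03.

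Mif was the member with a clear separation of the genotypes. Its bright probe set, 1416335_at, gave MAS5 signals of 1892, 2445 and 1299 in controls 01, 02 and 03. In knockouts 01, 02 and 03 it gave 9988, 8119 and 3400.4. Every knockout signal was above every control signal, and within each genotype the array numbered 03 was the lowest. On the log2 scale the controls had a mean of 10.83 ± 0.46 (SD, n = 3) and the knockouts 12.67 ± 0.82 (SD, n = 3). Knockout minus control was 1.84 log2 units (moderated standard error 0.43), a 3.58-fold higher geometric mean in the knockout.

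The same-numbered arrays gave a Mif difference of 2.40 for number 01, 1.73 for number 02 and 1.39 for number 03 in log2 units, or 5.28-fold, 3.32-fold and 2.62-fold. In the same pairs the acinar marker mean differed by 0.08, 0.32 and -3.34 log2 units, knockout minus control. Mif was higher in the knockout in each of these pairs, and the difference was 2.07 without both arrays numbered 03. The Mif signal and the acinar signal were each lowest on the arrays numbered 03 in both genotypes, and the part of exocrine tissue in the level of Mif was not tested.

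Over all 11609 genes tested, the Mif difference ranked 44th from the top. All knockout signals lay above all control signals for 3.98% of genes, and with a difference of at least 2-fold for 1.15%. Mif was among these 133 genes, which is no finding since the contrast was known when it was chosen. In limma's fit over all genes, 2 genes passed an adjusted p of 0.05 (0.0172% of those tested), and 6 passed with the replicate number as a block (0.0517%). Of the 4 member genes tested, 0 passed in either fit. At an unadjusted p under 0.05, 1.99% of all genes were higher and 0.594% lower, and 1 member, Mif, was among the higher ones. Nothing is read from these counts.

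**Figure D1:**
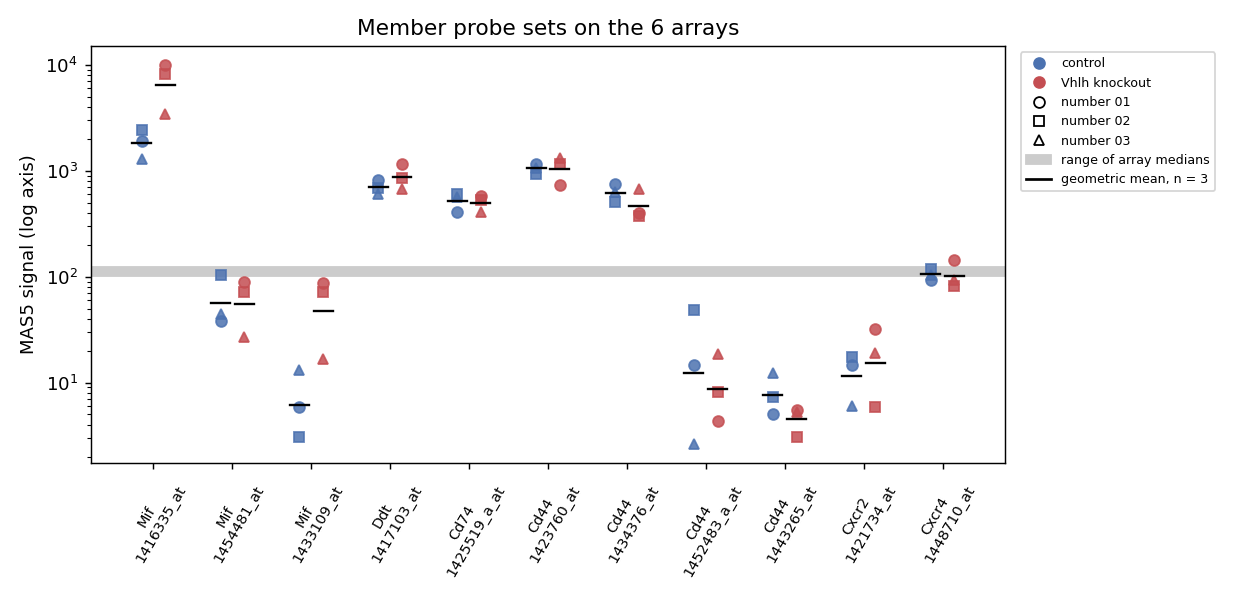
MAS5 signal (log axis) of each of the 11 member probe sets on the 3 control and 3 Vhlh knockout arrays, with the symbol giving the array number, the bar the geometric mean and the grey band the range of array medians. The knockout points of Mif 1416335_at all sit above its control points, and the 6 probe sets that did not enter the fit lie in or under the band except for Cxcr4 on knockout 01, at 142; heights of different probe sets are not comparable.

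The other Mif probe sets were dim and did not give a usable level. Probe set 1433109_at read 5.90, 3.09 and 13.1 in controls and 87.9, 71.5 and 16.8 in knockouts 01, 02 and 03. Its knockout signals were also all above its control signals, but all 6 were under the array medians. Probe set 1454481_at, also under the array medians throughout, read 38.4, 104 and 44.6 in controls and 89.5, 71.5 and 27.0 in knockouts, where the groups overlapped. The RefSeq table also names 7 processed pseudogenes of Mif, and whether the probes bind their transcripts was not tested.

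Ddt, the homolog of Mif, showed a smaller difference in the same direction. Its probe set gave signals of 813, 686 and 604 in controls 01, 02 and 03 and of 1159, 859 and 668 in knockouts 01, 02 and 03. Each knockout was above the control of its own number, yet the groups overlapped, since knockout 03 was below controls 01 and 02. The controls averaged 9.44 ± 0.21 (SD, n = 3) on the log2 scale, and the knockouts averaged 9.77 ± 0.40 (SD, n = 3). The difference of 0.33 (standard error 0.31), a 1.25-fold ratio, was about as large as this error, which comes from the fit without the replicate block. Differences within the pairs were 0.51, 0.33 and 0.14 for numbers 01, 02 and 03, the same order as for Mif.

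Cd74, the receptor chain that binds Mif, did not separate the genotypes. Its signals were 404, 608 and 569 in controls 01, 02 and 03 and 582, 526 and 411 in knockouts 01, 02 and 03. The highest and the lowest of the 6 values were both controls. On the log2 scale the control mean was 9.02 ± 0.32 (SD, n = 3) and the knockout mean 8.97 ± 0.26 (SD, n = 3), which differ by -0.05 (standard error 0.30). The pairs disagreed in direction, at 0.52, -0.21 and -0.47 for numbers 01, 02 and 03, and over the 12 alternative settings the Cd74 difference lay between -0.23 and 0.16.

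Cd44, the hyaluronan receptor that carries the Cd74 signal into the cell, had 2 bright probe sets that did not move alike. Probe set 1423760_at read 1159, 938 and 1065 in controls and 732, 1163 and 1317 in knockouts 01, 02 and 03. Knockout minus control came to -0.02 log2 units (standard error 0.31), and the 3 knockouts spread more widely (SD 0.45) than the 3 controls (SD 0.15). Probe set 1434376_at read 751, 504 and 631 in controls and 400.4, 376 and 679 in knockouts. Here the genotypes differed by -0.41 log2 units (standard error 0.33), and 2 of the 3 knockouts were below all controls. In pair 01 the probe sets were lower by similar amounts in the knockout, at -0.66 and -0.91. In pair 02 they had opposite signs, at 0.31 and -0.42, and in pair 03 both were positive, at 0.31 and 0.10.

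Knockout 03, the array with the highest Cd44 signal in the first of these probe sets, was also the array with the most signal from fibroblast and stellate cell genes. All 6 tested members of that list had a positive difference, with a median of 1.23, and the list's mean was 2.69 log2 units above the control mean on knockout 03 against 0.43 and 0.69 on knockouts 01 and 02. The part of these cells in the Cd44 signal was not tested, and in whole islets fewer cells of a type cannot be told apart from less RNA per cell. The remaining Cd44 probe sets, 1452483_a_at and 1443265_at, reached at most 48.9 and 12.3 on any array, below the array medians.

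The chemokine receptors that bind Mif were at or under the level at which a difference could be read. Cxcr4, the receptor of Cxcl12, gave signals of 94.0, 118 and 105 in controls and 142, 80.9 and 92.1 in knockouts 01, 02 and 03. It was above the array median on 2 of the 6 arrays, control 02 and knockout 01, and the groups overlapped, with a log2 difference of -0.04. Cxcr2, a receptor best known from neutrophils, gave 14.7, 17.6 and 6.06 in controls and 32.0, 5.85 and 19.2 in knockouts. All of its signals were far below the array medians, so the ratio of its means is not informative.

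**Figure D2:**
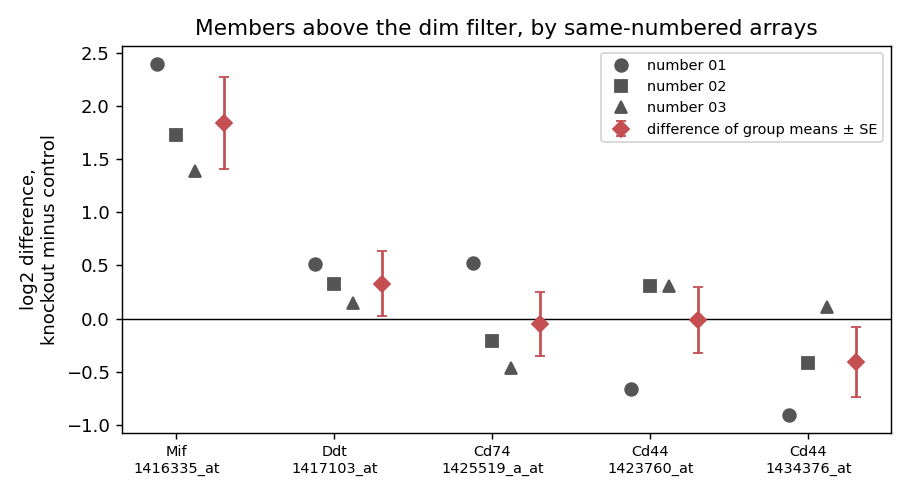
Log2 difference of knockout minus control for the 5 member probe sets that entered the fit, as 1 point for each same-numbered pair of arrays and as the difference of group means with its moderated standard error (diamond). The Mif points lie between 1.39 and 2.40 and the Ddt points between 0.14 and 0.51, while the points of Cd74 and of both Cd44 probe sets fall on both sides of 0.

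Other genes of the pathway were read from 4 lists of 59 genes, of which 40 were bright enough to test. Of these, 0 passed limma's adjusted p of 0.05 in either direction, with or without the replicate block. At an unadjusted p under 0.05 there was 1 higher gene of the 40, Htra1, and 0 lower ones, beside the same 1.99% and 0.594% of all genes. All knockout signals were above all control signals for 1 of the 40 (Htra1), where 3.98% of all genes were higher in that way. All were below for 2 (Ezr and Pik3ca), where 2.77% of all genes were lower in that way. The median log2 difference of the 40 was 0.19, against -0.00028 over all genes tested, and 28 of the 40 were above 0.

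The ligands that share receptors with Mif were the list with the largest median, 0.84 over 4 tested genes, all 4 above 0 and none past the threshold. Cxcl1, a neutrophil chemokine that acts on Cxcr2, gave signals of 454, 994 and 448 in controls and 443, 1301 and 3041 in knockouts 01, 02 and 03, a log2 difference of 1.04 (standard error 0.63, limma adjusted p 0.9998). Cxcl2, which acts on the same receptor, gave 62.1, 242 and 158 in controls and 138, 215 and 1286 in knockouts, a difference of 1.34 (standard error 0.81). Knockout 03 set the size of these values, since without it the differences were 0.37 for Cxcl1 and 0.37 for Cxcl2. Cxcl12, the ligand of Cxcr4, was 216, 161 and 145 in controls and 194, 283 and 285 in knockouts, with a difference of 0.54 (standard error 0.36). Has1, a hyaluronan synthase, differed by 0.65 (standard error 0.66), and by -0.05 without control 01. The mean of these 4 genes lay at -0.63, 0.61 and 0.02 log2 units from the control mean in controls 01, 02 and 03, and at 0.01, 0.91 and 1.76 in knockouts. Fibroblast and stellate cell genes lay at -0.56, 0.64 and -0.08 in controls and 0.43, 0.69 and 2.69 in knockouts, highest on the same array. Of the endothelial genes, 8 of 8 tested were above 0 with a median of 0.62, and 0 passed limma's threshold. In 4 of the 8 all knockout signals lay above all control signals, beside 3.98% of all genes. Among them, Vwf was under the array medians in controls 01 and 03 (104 and 66.3) and above them in every knockout. Its entry into the fit thus rested on the knockouts, and its separation is not read. At an unadjusted p under 0.05, 1 of the 8 was higher, beside 1.99% of all genes. The mean of the endothelial genes lay between -0.12 and 0.16 in controls and between 0.42 and 0.97 in knockouts. The part of fibroblast, stellate and endothelial cells in the ligand signals was not tested. The other 6 ligand or synthase genes with a probe set were too dim to test: Cxcl3, Cxcl5, Cxcl15, Ppbp, Has2 and Has3.

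Among the other receptors and the proteins that tie Cd44 to the actin cortex, 6 genes were tested, with a median difference of 0.06. Moesin (Msn) differed by 0.64 (standard error 0.34), or 0.33 without knockout 03. Ezrin (Ezr), of the same protein family, differed by -0.30 (standard error 0.26), with signals of 685, 730.2 and 850 in controls above the 626, 547 and 665 of the knockouts. Ackr3, the scavenging receptor of Cxcl12 that Mif also binds, differed by 0.24 (standard error 0.50) and by -0.31 without control 03 and -0.03 without knockout 02. Lyve1, a hyaluronan receptor of lymphatic vessels and some macrophages, differed by 0.23 (standard error 0.36) and by -0.03 without control 03.

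Cd74 works with MHC class II, whose chains it escorts, and with the proteases that cut it. The 10 tested genes of this list had a median difference of 0.18, and 8 of them were above 0. The class II chain gene H2-Ab1 gave 1097, 873 and 840 in controls and 1355, 2066 and 959 in knockouts, a difference of 0.58 (standard error 0.33), or 0.29 without knockout 02. H2-Aa, the partner chain, gave 1480, 775 and 285 in controls and 508, 511 and 485 in knockouts, a difference of -0.46 (standard error 0.52) that became 0.09 without control 01. H2-Oa differed by 1.25 (standard error 0.98), from dim signals, and by 0.12 without control 02. Ctss, the cathepsin that trims the last fragment of Cd74, differed by -0.41 (standard error 0.32), and by -0.08 without knockout 01. Of the 5 tested class II genes, 4 were above 0, the others being H2-Eb1 at 0.15 and H2-DMa at 0.02. H2-Eb1 became -0.07 without knockout 02, and H2-DMa became -0.25 without knockout 01 and -0.08 without control 02. Ciita, their master regulator, was too dim to test at 20.0 to 105 signal units.

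Cd74 and the leukocyte markers were highest on different arrays. Of the 5 markers shared by all leukocytes, 4 were above 0 in the knockout with a median of 0.43, and of 9 tested macrophage markers 8 were, with a median of 0.30, and 0 of these 14 passed limma's adjusted p of 0.05 or an unadjusted p under 0.05. Knockout 03 had the highest mean of either list, at 0.55 and 0.46 log2 units above the control mean, but the second lowest Cd74 signal. The leukocyte markers Coro1a, Cd52 and Cd53 were under the array median on most controls and above it on every knockout. Their entry into the fit thus rested on the knockouts. Markers of lymphocytes, dendritic cells and neutrophils were too dim to test. The 9 lymphocyte genes measured had a median signal of 33.5 with 4 of 54 values above the array median, and the 3 neutrophil genes a median of 26.2 with 0 of 18 values above it.

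**Figure D3:**
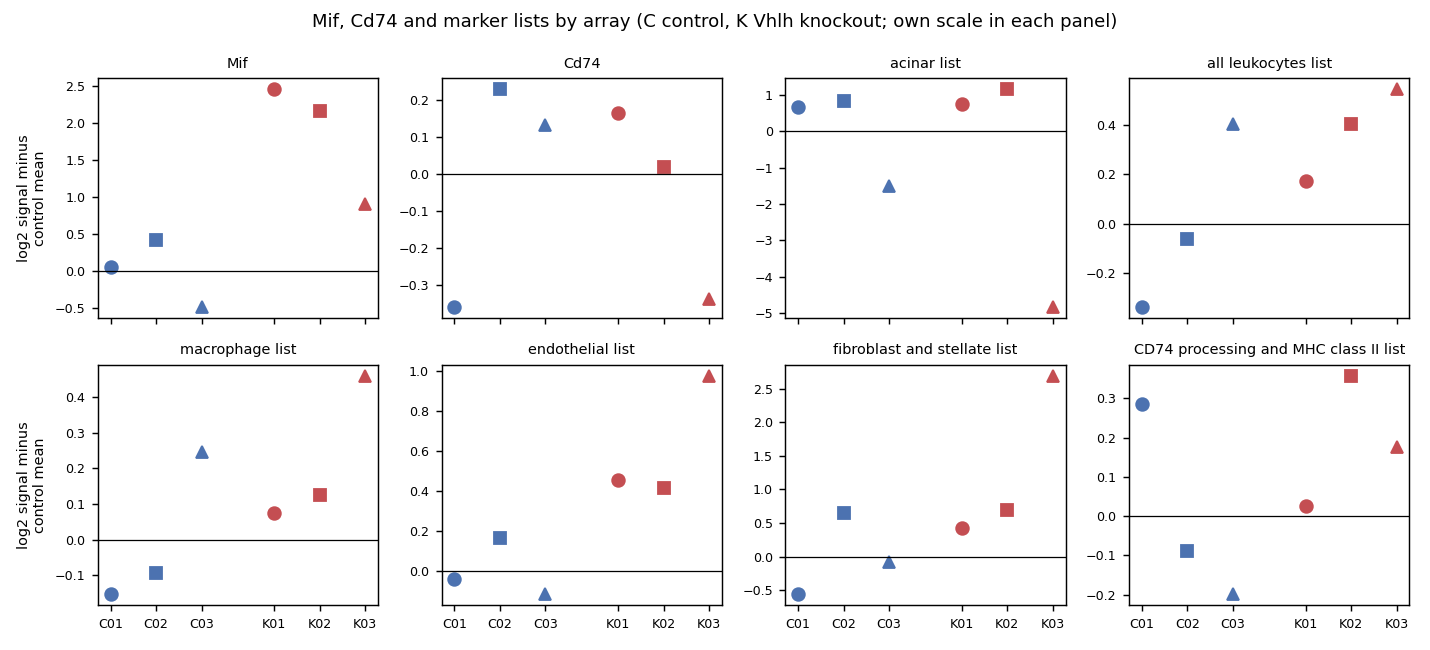
Log2 signal minus the control mean on each array, for Mif, for Cd74 and for the mean of 6 gene lists, each panel on its own scale, with controls (C) at the left, knockouts (K) at the right and symbols giving the array number. Mif separates the genotypes and is lowest on number 03 in each, acinar genes drop to -4.83 on knockout 03, and fibroblast genes reach 2.69 there.

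Inside the cell, 20 genes that carry Mif signals or bind the Mif protein were tested, with a median of 0.13. Htra1, a secreted serine protease reported to bind Mif, had the lowest p of all 40 pathway genes. Its signals were 154, 259 and 120.3 in controls and 267, 378 and 464 in knockouts, a 2.14-fold ratio and a log2 difference of 1.10 (standard error 0.40, limma adjusted p 0.9998). The difference stayed between 0.86 and 1.41 when any 1 array was left out. Rps19, a ribosomal protein that also binds Mif, differed by 0.52 (standard error 0.36), or 0.22 without control 03. Uso1, a vesicle tethering factor linked to Mif release, differed by -0.42 (standard error 0.31), and by -0.20 without knockout 01. Src, a kinase recruited by the Cd74 and Cd44 complex, differed by 0.47 (standard error 0.40), or 0.26 without knockout 01. Pik3ca, a lipid kinase subunit, differed by -0.27 (standard error 0.25).

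**Figure D4:**
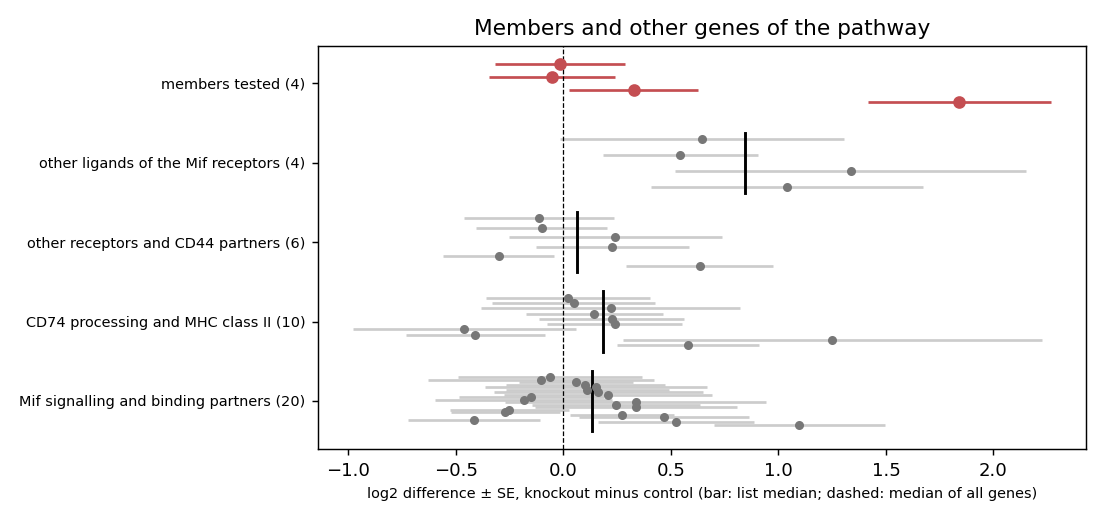
Log2 difference of knockout minus control with its moderated standard error for the 4 member genes tested (red) and the 40 other pathway genes tested (grey), from the fit of 1 probe set per gene; black bars are list medians and the dashed line is the median of all genes. Mif lies at 1.84 and the list medians lie between 0.06 and 0.84, with 0 of the 40 genes past the threshold.

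Genes beside Mif on the chromosome were compared with it, 5 named protein-coding genes on each side, of which 8 were tested. Between Ddt and Mif lie 4 glutathione transferase genes. Gstt2, the nearest on that side, differed by -0.02 (standard error 0.54), Gstt1 by -0.06 (standard error 0.28) and Gstt3 by 1.39 (standard error 1.06), the last from dim signals of 107, 112 and 8.37 in controls and 122, 244 and 60.7 in knockouts. Gstt3 rested on control 03, without which its difference was 0.15. Gstt4 was too dim to test. On the other side Derl3, an endoplasmic reticulum degradation factor, differed by 0.31 (standard error 0.30) and Smarcb1, a chromatin remodelling subunit, by -0.26 (standard error 0.26). Chchd10, a mitochondrial protein gene, differed by 0.34 (standard error 0.40) and Vpreb3, a B cell gene, by -0.15 (standard error 0.68). Derl3 fell to 0.06 and Chchd10 to -0.02 without control 02, and Vpreb3 turned to 0.31 without control 03 and 0.33 without knockout 03. Gstt1 and Gstt2 also changed sign without knockout 03, to 0.16 and 0.50, and without control 01, to 0.03 and 0.11, and Gstt2 became 0.11 without control 02. All 8 tested neighbours, Ddt included, had overlapping groups, 4 of them above and 4 below 0, a count that moves with single arrays. Overlap was the usual case. Of all genes tested, 3.98% had all knockout signals above all control signals and 2.77% had all below. Nothing is read from the overlap of the neighbours. Mmp11, too dim to test, had control signals of 80.0 to 90.7 above knockout signals of 9.34 to 49.7, all under the array medians.

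**Figure D5:**
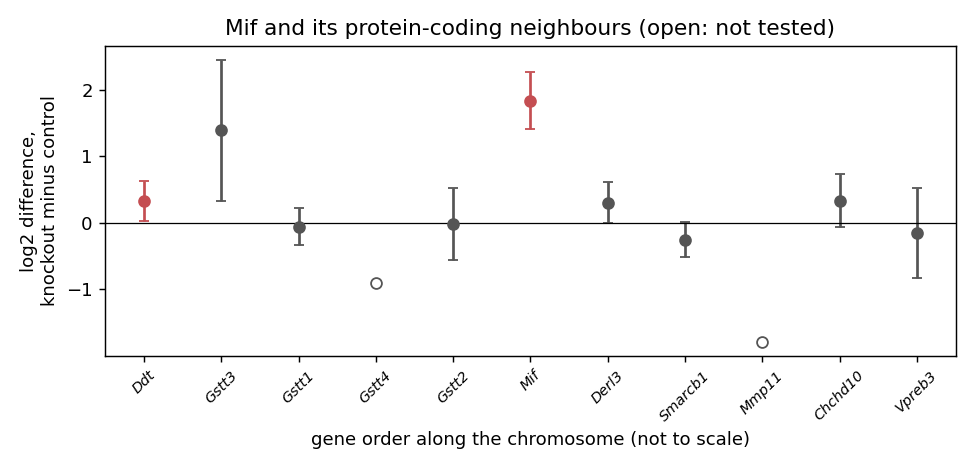
Log2 difference of knockout minus control for Mif and the 5 named protein-coding genes on each side of it, in chromosomal order, with the moderated standard error where the gene was tested and an open circle where it was too dim. Mif stands at 1.84, and the tested neighbours other than Ddt lie between -0.26 and 1.39, the latter Gstt3, which was 0.15 without control 03.

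Likeness of pattern was measured as Pearson's r of log2 signals over the 6 arrays, which share the genotype contrast, among 11608 other genes. Closest to Mif were Pnpla7, a lysophospholipase (r = 0.99), Rhou (r = 0.99), and Gpr146, an orphan receptor (r = 0.98). The genotype differences of these genes were smaller than that of Mif, at 0.47, 0.80 and 0.26 log2 units. Most opposed were Phf20l1, a chromatin reader (r = -0.99), Dcaf12l1 (r = -0.98) and Plekhf1 (r = -0.97). Ddt had r = 0.82 with Mif, Cd74 0.19 and Cd44 -0.40. For Cd74 the closest were Dcxr, Dbndd2 and Klc3 (r = 0.96 each). Most opposed to Cd74 were Mea1, Tlx2 and D430019H16Rik (r = -0.98 each), and Cd44 had r = -0.72 with it. These correlations describe 6 arrays and were picked as the extremes of 11608 genes.

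As a reference from the same arrays, 5 genes known to be induced by HIF were read. For Ldha, Pgk1 and Slc2a1 all knockout signals lay above all control signals, as for 3.98% of all genes. The log2 difference was 2.95 for Ldha, 1.87 for Pgk1 and 2.06 for Slc2a1, beside 1.84 for Mif. Adm and Egln3 were under the array medians in all controls (35.7 to 51.9 and 43.2 to 52.9 signal units). They passed the filter only through the knockouts (282 to 380.4 and 336 to 965), so their separation and p-values are not read or counted. In limma's fit 0 of the other 3 passed, with adjusted p-values of 0.0606 for Ldha, 0.282 for Pgk1 and 0.487 for Slc2a1. With a replicate block 2 of these 3 passed, Ldha at 0.0476 and Pgk1 at 0.0432 (limma adjusted p), and Slc2a1 at 0.0873 did not. Pgk1, a glycolytic kinase, had a difference close to that of Mif but a more even one, at 1.65, 1.88 and 2.09 in pairs 01, 02 and 03, and it was largest in the pair where Mif was smallest.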

How the data were processed

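Affymetrix arrays were hybridized with cRNA from 30 ng of islet total RNA after consecutive rounds of amplification, per the labels. The authors deposited a linear intensity, the MAS5 signal, for each probe set. The submitters' processing notes name GCOS 1.4 and MAS5. The 2% trimmed mean was 500.003 on every array, and no further normalization is recorded in the labels. Of 45101 rows, 64 control probe sets were left out. The platform annotation gave 34945 probe sets 1 symbol, 932 several and 9160 none.

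Genotypes were compared on log2 signals, with no pseudocount, by limma 3.58.1 under R 4.3.3 (eBayes with intensity trend) and Benjamini-Hochberg adjustment at 0.05. A gene was represented by its brightest probe set, _x_at kinds only where there was no other, and tested if above the array median on at least 3 arrays (11609 of 18193 genes). Member probe sets were fitted among 19853 probe sets. The members, pathway lists and marker lists were chosen with earlier results of these data known. The text names up to 4 pathway genes of lowest p per list, the 5 named protein-coding genes on each side of Mif, the 3 genes most and least alike in pattern to Mif and Cd74, and 5 HIF reference genes. Pik3ca and the dim genes were named after their values were seen, because a count rests on them. Of 59 pathway genes 9 were not analysed here.

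Same-numbered arrays share age and recorded sex. Their deviations from group means correlated at 0.15, 0.42 and 0.43 for numbers 01, 02 and 03, so the replicate number was used as a block in an alternative fit. Control 01 and knockout 02 reached 0.14.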

Additional observations from a re-analysis of the deposited data

How the results depend on the processing

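Alternatives were the replicate block, quantile normalization, a pseudocount of 16, other filters, array weights and no intensity trend. Others were averaging those probe sets of a gene that passed the filter on dim signals, and leaving out each array in turn. The dim Mif probe sets did not enter the averaging. Leaving out both arrays numbered 03 was chosen after seeing the data. The number of all genes passing limma's threshold, 2 as reported, was 6 with the replicate block and 5 with the probe sets above the filter averaged. The number was 0 without both arrays numbered 03 (268 at an unadjusted p under 0.05), and from 0 to 5 when 1 array was left out. It was 0 without knockout 01 (498 at an unadjusted p under 0.05) and without knockout 03 (254), 1 without control 01 and 5 without control 02. The cause was not tested. Pathway genes and members passing numbered 0 under every alternative run. Mif kept its direction under all 12 alternatives, from 1.53 without knockout 01 to 2.31 without knockout 03. Ddt did so under all 12, from 0.12 to 0.52 in the same settings. For Mif, Ddt and Cd74, 2 of the 12 could not change the difference. The replicate block leaves any difference as it is in this balanced design, and the averaging used their only probe set above the filter. Cd74 kept its sign under 7 of 12 and Cd44 under 9 of 12. Cd44 lay between -0.21 (mean of its 2 bright probe sets) and 0.24 (without knockout 01). None of these shifts reached 1 SD of the replicates. The replicate block changed no other call. Dim signal limits Cxcr2, Cxcr4 and 6 of the 11 member probe sets.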
